A study of Mus musculus with 3 samples.

Results

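The genes described here are interferon-stimulated genes, 43 named genes whose transcription is switched on by interferons. They were measured in CT26, a colon carcinoma line from a BALB/c mouse. A member was a listed gene that stood alone in the array's annotation of a probe set, and probe sets of 1 gene were averaged. Of the 43, 38 were matched in this way, out of 19938 genes measured. Isg15, Gbp2, Igtp and Ifi204 share their probe sets with other genes and Ifi44 was not matched, so these 5 are not analysed here. A vector with puromycin resistance and GFP was brought into the cells, which were selected with puromycin, sorted for GFP and cloned from single cells by dilution. In the control group (miR-Ctrl, called Ctrl) the vector held a control microRNA. In the other groups it held the miR-17~92 cluster of microRNAs, at a level the labels call medium (Med) or high (Hi). All 3 groups share the line, the vector type, the selection and medium with 10% fetal bovine serum, and the labels name no interferon or infection. The design text speaks of 3 subclones a group, but each group has 1 column of values, and the sources used here do not say whether a column is 1 clone, a pool or a mean.

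Interferons bind receptors that signal through JAK kinases to STAT proteins. Type I interferon drives a complex that holds STAT2 and IRF9 onto interferon-stimulated response elements (ISREs) in promoters, and interferon gamma acts through gamma-activated sites (GAS). The genes so induced encode sensors of viral RNA, proteins that block viral entry, translation or replication, and brakes on the pathway itself. Tumour cells can hold part of this programme active without added interferon.

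Values are deposited levels on a log2 scale, so a difference of 1 is 2-fold. Each group being 1 sample, no difference has a measured error and no test was made. Higher and lower describe these columns, and levels are compared within a gene, never between genes. Where 3 levels follow a gene, they are those of Ctrl, Med and Hi in that order, and a signed value is Hi minus Med unless said otherwise. The columns had medians of 6.95, 6.65 and 6.66. Med and Hi held identical values in 51.1% of genes. Olfactory and vomeronasal receptor genes, which served as a gauge of background, had 95th percentiles of 6.87, 6.18 and 6.20 (the receptor percentile). Of 1194 such genes, none was 2-fold apart between Med and Hi, and their differences had an SD of 0.09 over genes. Their median level was 4.51 in Med and in Hi, so this SD is no measure of error for genes at higher levels. The host transcript of the cluster, Mir17hg, was at 5.98, 6.02 and 6.02, so the array gives no check of the labelled levels. Of 8 epithelial markers, 4 lay above the receptor percentile in Ctrl and 5 in Med and in Hi. Krt18 (7.97, 11.41 and 12.28) and Krt8 (8.92, 7.28 and 7.32) were among them and ran in opposite directions from Ctrl. Epcam, an epithelial surface protein, was below it at 6.15, 5.14 and 5.14, and Cdx2 and Vil1 were also below it in each column. Of 6 fibroblast markers, 5 lay above it in Ctrl and 4 in Med and in Hi.

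Between the levels of the cluster, most interferon-stimulated genes were lower in Hi than in Med. Of the 38, 31 were lower, 4 identical and 3 higher, where 23.6% of all genes were lower and 25.3% higher. Ifit2, Ifit3, Gbp7 and Samhd1 were at least 2-fold lower, 4 of 38 against a background of 0.512%, and none was 2-fold higher, against 0.406%. At 1.5-fold, 11 were lower and 0 higher, against 2.04% and 1.01% of all genes. The median difference was -0.29, a 1.22-fold lower level, where the median of all genes was 0.00. The members lie high on the array, and 31 of them were at or above the 75th percentile of genes by the mean of Med and Hi. Above that percentile 38.4% of genes were lower in Hi, 4.35% by at least 1.5-fold and 0.963% by at least 2-fold. All 4 of the 2-fold differences were under 2-fold with quantile normalization (-0.99 for Ifit2 and Ifit3, -0.93 for Samhd1, -0.92 for Gbp7), and Samhd1 was at -0.99 with columns centred on genes past an expression filter. The members' median stayed between -0.23 and -0.30 under the scalings tried, while the 4 identical genes take the sign of whatever scaling is applied. In bulk RNA, fewer cells expressing a gene and less RNA per cell cannot be told apart.

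**Figure D1:**
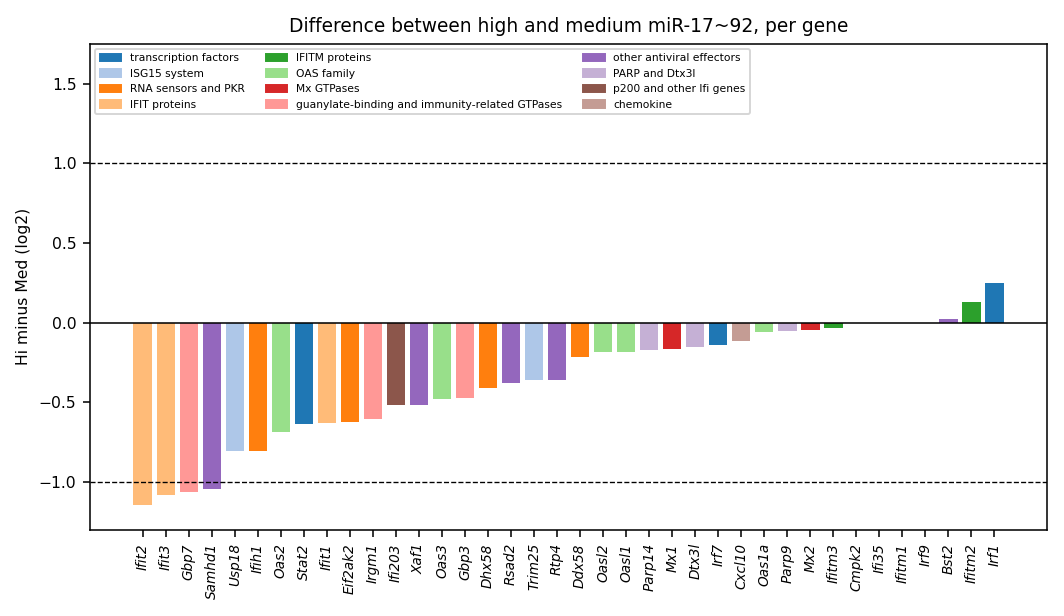
Difference between Hi and Med (log2, vertical axis) for each of the 38 genes, ordered from lowest to highest and coloured by role, with dashed lines at 2-fold and no error bars since each group is 1 sample. Bars of 31 genes lie below 0, Ifit2, Ifit3, Gbp7 and Samhd1 pass the lower line, and Irf1 has the highest value at 0.25.

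The promoters of these genes were searched for the elements named above. RefSeq's table for the mouse assembly GRCm38.p6 held a window of 250 bases before to 50 after the start site for 30 of the 38 members, with a second window for 5 of them. No entry was found for Usp18, Dhx58, Oas2, Mx1, Mx2, Rtp4, Parp9 and Parp14. Windows were searched on both strands for an ISRE core, GAAA followed after any 2 bases by GAAA, and for a GAS, TTC followed after any 3 bases by GAA. At least 1 ISRE match was found in 17 of the 30 (56.7%), against 3.89% of the 15614 measured genes with a window. A GAS match was found in 9 (30.0%), against 8.99% of those genes. Counted by window, the shares of all 32851 promoter windows were 3.44% for the ISRE and 8.30% for the GAS. Of the members, 5 held both motifs, and the matches overlapped in Ifitm3 and Bst2. Below are the promoters of 3 members that were lower in Hi (Ifit3, Ifit1 and Gbp7) and of 2 that were nearly equal in Med and Hi (Bst2 and Ifitm3), each 5′ to 3′ along the gene, with the ISRE matches in capitals. The matches of Ifit3, Ifit1 and Gbp7 lie on the opposite strand and so read TTTC, 2 bases, TTTC.
Ifit3 (chr19:34583279-34583578, plus strand): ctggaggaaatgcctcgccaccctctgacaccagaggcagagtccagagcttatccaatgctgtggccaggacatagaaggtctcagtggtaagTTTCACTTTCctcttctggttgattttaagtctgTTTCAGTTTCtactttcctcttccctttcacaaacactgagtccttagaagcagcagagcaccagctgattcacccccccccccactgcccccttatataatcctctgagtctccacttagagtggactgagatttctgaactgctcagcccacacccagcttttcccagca
Ifit1 (chr19:34640639-34640938, plus strand): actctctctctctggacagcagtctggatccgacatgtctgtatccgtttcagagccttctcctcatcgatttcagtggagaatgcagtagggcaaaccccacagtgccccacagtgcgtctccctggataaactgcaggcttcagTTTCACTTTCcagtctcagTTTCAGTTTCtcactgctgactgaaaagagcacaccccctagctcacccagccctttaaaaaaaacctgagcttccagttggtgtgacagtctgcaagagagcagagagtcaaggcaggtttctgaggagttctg
Gbp7 (chr3:142530086-142530385, plus strand): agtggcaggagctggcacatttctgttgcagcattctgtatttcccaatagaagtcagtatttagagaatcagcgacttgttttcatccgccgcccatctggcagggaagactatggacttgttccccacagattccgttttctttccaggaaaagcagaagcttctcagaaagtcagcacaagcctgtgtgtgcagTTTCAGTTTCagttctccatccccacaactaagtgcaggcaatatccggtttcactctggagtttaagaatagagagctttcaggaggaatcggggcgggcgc
Bst2 (chr8:71537423-71537722, minus strand): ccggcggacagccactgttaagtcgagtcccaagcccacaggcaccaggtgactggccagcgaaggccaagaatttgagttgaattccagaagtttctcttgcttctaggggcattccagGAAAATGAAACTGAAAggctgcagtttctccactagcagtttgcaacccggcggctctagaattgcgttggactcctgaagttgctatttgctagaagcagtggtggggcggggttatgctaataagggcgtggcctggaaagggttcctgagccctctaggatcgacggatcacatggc
Ifitm3 (chr7:141010695-141010994, minus strand): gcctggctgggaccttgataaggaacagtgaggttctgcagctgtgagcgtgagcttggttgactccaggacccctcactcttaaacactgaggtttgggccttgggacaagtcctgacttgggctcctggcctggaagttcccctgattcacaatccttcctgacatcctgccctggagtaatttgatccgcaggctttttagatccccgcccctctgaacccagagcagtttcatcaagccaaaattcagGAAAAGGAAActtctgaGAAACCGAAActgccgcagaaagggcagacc
Ifit3 and Ifit1 each carry a pair of separate matches upstream of the start, with the same letters in both genes. The nearer match begins 122 bases before the start in Ifit3 and 85 in Ifit1. Gbp7 has 1 match, which begins 53 bases before the start and has the letters of that nearer match. In Bst2 the pair overlaps, and in Ifitm3 both lie just after the start site. Each of the 5 printed promoters holds a match, so they cannot show how a match relates to the Hi minus Med difference.

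The Hi minus Med difference was set beside this motif. Members with an ISRE match had a median of -0.48 (15 of 17 lower, 7 of them by at least 1.5-fold), and those without one had a median of -0.15 (8 of 13 lower, 2 by at least 1.5-fold). Both ranges overlapped widely, and Ifit2 and Samhd1, at -1.15 and -1.04, had no match in their windows. Over all measured genes with a window, 4.61% of 607 genes with a match were at least 1.5-fold lower in Hi, against 1.91% of 15007 without. Once the members and the other interferon-stimulated genes listed were set aside, the shares were 2.47% and 1.87%. Members with a GAS match had a median of -0.06 and those without one -0.36. By any amount, 6 of 9 with a match and 17 of 21 without one were lower. The counts at 1.5-fold and 2-fold ran the other way. With a match 4 of 9 were at least 1.5-fold lower and 3 were 2-fold lower (Ifit2, Gbp7 and Samhd1). Without one, the counts were 5 of 21 and 1 (Ifit3). Over all measured genes with a window, 2.14% with a GAS match were at least 1.5-fold lower in Hi, against 2.01% without. These are descriptions, since the members were chosen with the difference known.

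**Figure D2:**
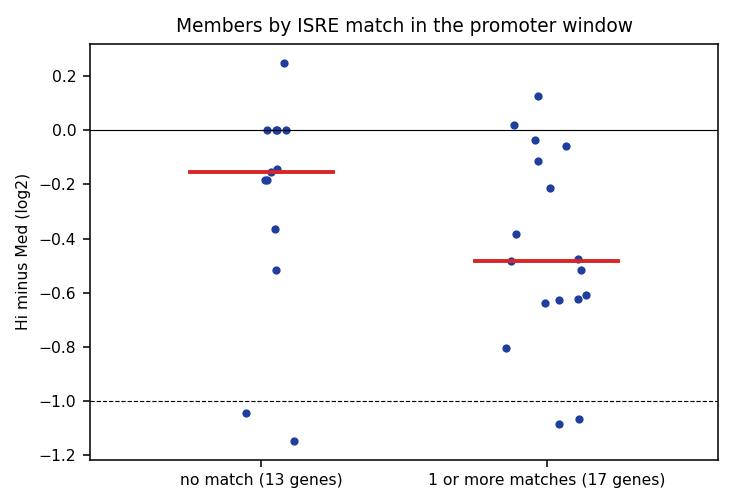
Difference between Hi and Med (log2, vertical axis) for the 30 members with a promoter window, split by whether the window held an ISRE match, with the median of each class as a red bar and the dashed line at 2-fold lower. The class with a match has a median of -0.48 and the class without one -0.15, and their points overlap.

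Of the transcription factors, Stat2 was lower in Hi and Irf1 higher. Stat2, a subunit of the factor that type I interferon activates, was at 8.35, 10.49 and 9.85, a difference of -0.64 between Hi and Med. Irf9, the DNA-binding subunit of the same complex, was at 7.86, 9.74 and 9.74. Within this complex Stat2 was thus lower in Hi and Irf9 identical, both above Ctrl. Irf7, which amplifies interferon alpha transcription, was at 7.34, 11.41 and 11.26. Irf1, a factor induced by interferon gamma and by NF-kB, was at 7.52, 8.04 and 8.29 and had the highest Hi minus Med difference of the members, 0.25. Its 2 probe sets were both higher in Hi (by 0.37 and 0.13) but disagreed against Ctrl, with 7.71, 9.37 and 9.74 in one and 7.34, 6.71 and 6.84 in the other.

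The measured members of the ISG15 system, Usp18 and Trim25, and those of the RNA sensors were all lower in Hi. Outside the members, the ISG15-conjugation genes Uba7 and Ube2l6 were not lower. Uba7 was at 7.95 in all 3 columns, and Ube2l6 at 10.17 in Med and 10.21 in Hi. Usp18, which removes the ubiquitin-like ISG15 from proteins and restrains the type I receptor, was at 6.97, 12.56 and 11.75 (-0.81). Trim25, a ligase that activates RIG-I, was at 6.99, 11.31 and 10.95 (-0.36). Both were lower in Hi than in Med and far above Ctrl. Ifih1 (MDA5), a sensor of long double-stranded RNA, was at 7.09, 10.56 and 9.76 (-0.80). Ddx58 (RIG-I), which senses RNA ends, was at 6.80, 11.47 and 11.26 (-0.21), and Dhx58 (LGP2), their helper, at 6.78, 11.09 and 10.68 (-0.41). Eif2ak2 (PKR), the kinase that stops translation on double-stranded RNA, was at 4.98, 9.31 and 8.69 (-0.62). Among the sensors the order of the differences put Ifih1 lowest and Ddx58 nearest to 0, with no replicate spread to rank them by.

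The IFIT genes, whose products bind viral RNA and hinder its translation, had a median Hi minus Med difference of -1.08, the lowest of the role groups. Ifit2 was at 6.29, 9.87 and 8.72, 2.21-fold lower in Hi than in Med. Ifit3 was at 5.38, 11.48 and 10.39, 2.12-fold lower, and Ifit1 at 6.45, 11.30 and 10.67, 1.55-fold lower. Only 63 of the 19938 genes were further lower than Ifit2 and 74 further than Ifit3. All 3 levels in Hi were well above the receptor percentile, and all 3 Ctrl levels were below it.

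IFITM genes hardly differed between Med and Hi. Their products sit in membranes and block virus fusion. Ifitm3 was at 5.20, 13.08 and 13.04, a Hi minus Med difference of -0.04 whose sign turned with quantile normalization (0.02) and with columns centred on genes past the filter (0.02). Ifitm2 was at 7.37, 11.59 and 11.72, and its 3 probe sets were each higher in Hi, by 0.11 to 0.14. Ifitm1 was at 6.43, 6.10 and 6.10 as the average of 2 probe sets, which disagreed in level. One was above the receptor percentile in every column (7.24, 6.81 and 6.81) and the other below it (5.61, 5.39 and 5.39), and both were identical in Med and Hi. The IFITM genes are closely related copies next to each other, so how far their probe sets share signal was not tested.

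In the OAS family, whose synthetases answer double-stranded RNA by making the activator of RNase L, all 5 members were lower in Hi, by unequal amounts. Oas2 was at 7.15, 10.92 and 10.23 (-0.69) and Oas3 at 7.95, 11.06 and 10.57 (-0.48). Oas1a, from the same gene cluster, was at 7.43, 10.09 and 10.03 (-0.06). The OAS-like relatives Oasl1 (8.64, 10.10 and 9.91) and Oasl2 (7.67, 11.99 and 11.81) differed by -0.18 and -0.19. Among these 5 members the differences therefore ran from -0.69 to -0.06. Of the family's genes outside the members, Oas1b differed by -0.92 and Oas1c by -0.41.

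Mx proteins are dynamin-like GTPases that trap viral components, and many inbred mouse strains carry a defective Mx1. Mx1 was at 6.79, 6.61 and 6.45, the single member with the order Ctrl highest and Hi lowest. Mx2 was at 6.18, 8.01 and 7.97, and its Hi minus Med difference of -0.05 turned to 0.01 with columns centred on genes past the filter. Neither gene was 1.5-fold apart between Med and Hi.

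The guanylate-binding and immunity-related GTPases attack the vacuoles of intracellular pathogens and are induced mainly by interferon gamma. All 3 measured members were lower in Hi, but guanylate-binding genes outside the members were mixed. Gbp9 and Gbp4 were higher in Hi (0.77 and 0.32), Gbp5 and Gbp8 identical, and Gbp11 lower (-0.40). Gbp7 was at 6.87, 10.32 and 9.25, 2.09-fold lower in Hi than in Med. Its neighbour Gbp3 was at 5.84, 10.00 and 9.53 (-0.48), and Irgm1, a regulator of the other immunity-related GTPases, at 5.74, 11.17 and 10.56 (-0.61). Gbp3 and Irgm1 lay below the receptor percentile in Ctrl and above it in Med and Hi.

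Of the other antiviral effectors, Samhd1 differed most. Samhd1, which depletes the nucleotides that reverse transcription needs, was at 7.13, 11.14 and 10.09, 2.06-fold lower in Hi than in Med. Xaf1, a pro-apoptotic interferon target, was at 6.94, 10.36 and 9.84 (-0.51), and Rtp4, a chaperone of receptors, at 5.69, 10.48 and 10.12 (-0.36). Bst2 (tetherin), which holds budding virus at the cell surface, was at 8.79, 11.80 and 11.81 and so nearly equal in Med and Hi. Rsad2 (viperin), which makes a chain-terminating nucleotide, was at 5.92, 8.50 and 8.12 (-0.38). Its neighbour Cmpk2, a mitochondrial nucleotide kinase gene that is induced with it in other settings, was at 5.78, 4.999 and 4.999. The pair thus parted, Rsad2 being above the receptor percentile in Med and Hi and Cmpk2 below it in all 3 columns.

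The 3 neighbouring genes Parp9, Parp14 and Dtx3l, which encode ADP-ribosylating enzymes and a ubiquitin ligase, differed little between Med and Hi. Parp9 was at 6.59, 9.34 and 9.29, Parp14 at 6.84, 9.76 and 9.58, and Dtx3l at 6.83, 9.35 and 9.20. Their differences were -0.05, -0.18 and -0.15, and that of Parp9 turned to 0.0034 with columns centred on genes past the filter. Ifi203, a DNA-binding protein of the p200 family, was at 5.78, 12.26 and 11.74 (-0.52), and Ifi35, a binding partner of Nmi, at 7.14, 10.62 and 10.62. The chemokine Cxcl10, which attracts T and NK cells, was at 7.56, 8.49 and 8.38, and its difference from Ctrl was under 2-fold in both columns.

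**Figure D3:**
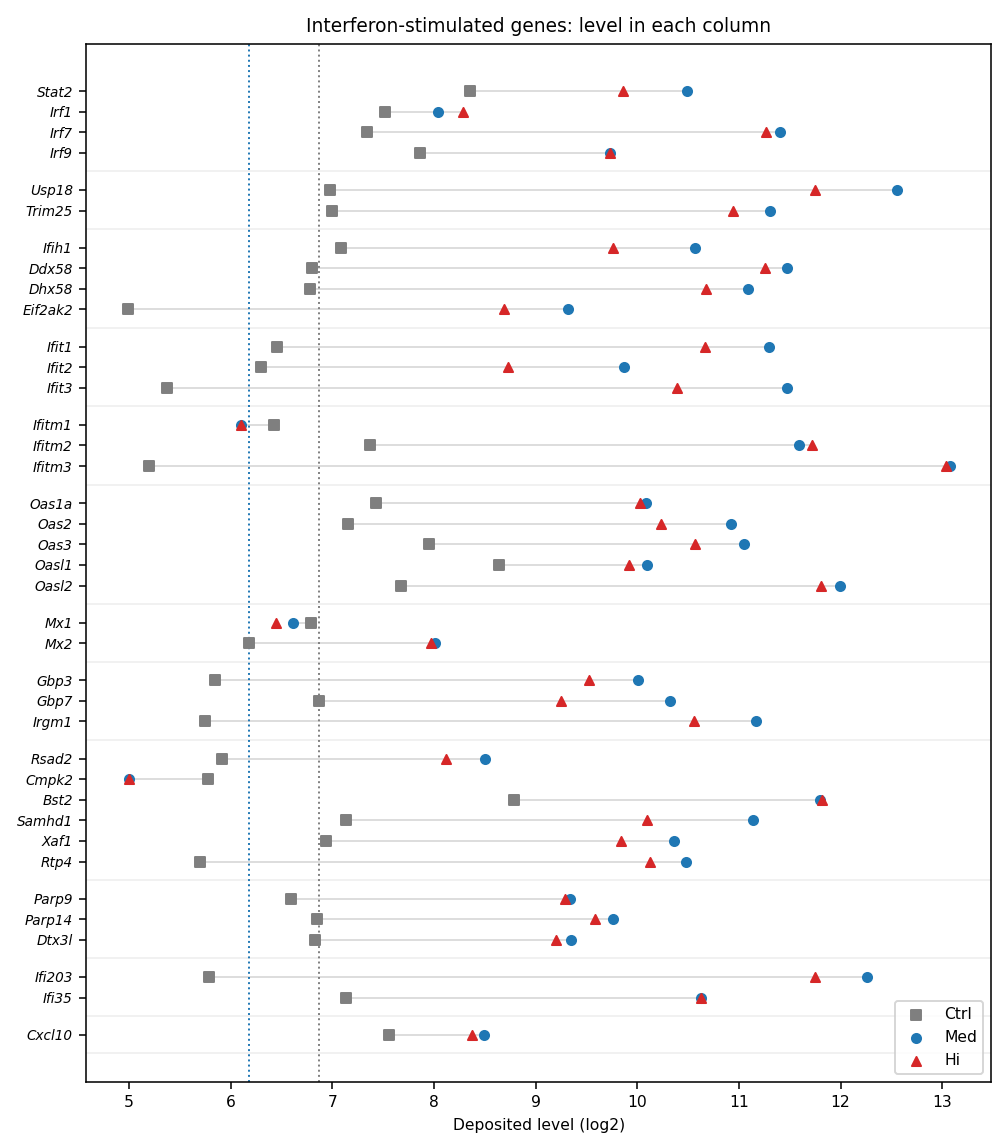
Deposited level (log2, horizontal axis) of each of the 38 genes in Ctrl (squares), Med (circles) and Hi (triangles), 1 value a column, grouped by role; dotted lines mark the 95th percentile of receptor genes in Ctrl (6.87, grey) and Med (6.18, blue). In most genes the square lies far to the left and the triangle just left of the circle, and Ifitm1, Mx1 and Cmpk2 have their highest level in Ctrl.

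The design grades the cluster from Ctrl through Med to Hi, and most members did not follow that order. The order Ctrl, Hi, Med from low to high was found in 30 of 38 members (78.9%), against 13.8% of all genes and 25.5% of the 9969 genes with a mean level at or above the median gene. Irf1, Ifitm2 and Bst2 followed the order Ctrl, Med, Hi (7.89%, against 6.83% of all genes and 13.2% of those 9969), with 0.25, 0.13 and 0.02 between Med and Hi. Irf9, Ifitm1, Cmpk2 and Ifi35 had identical values in Med and Hi.

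Against Ctrl, 33 of the 38 genes were at least 2-fold higher in Med, where 18.3% of all genes were, and none was 2-fold lower, against 16.3%. In Hi the counts were also 33 and 0, against 17.5% and 15.4%. Ifitm1, Mx1 and Cmpk2 were below Ctrl by any amount in both, where 56.4% of all genes were in Med and 56.1% in Hi. The median difference was 3.48 in Med and 2.93 in Hi, beside medians of all genes of -0.20 and -0.19. Both comparisons use the same Ctrl column. Of the members above the receptor percentile in Ctrl, Usp18 was furthest above its Ctrl level, by 5.59 in Med and 4.78 in Hi as deposited. Its Ctrl level of 6.97 was close to that percentile, 6.87, so the size of its difference from Ctrl is uncertain. Members under 2-fold from Ctrl were Irf1, Ifitm1, Mx1, Cmpk2 and Cxcl10 in both. In Ctrl, 19 of the 38 lay below the receptor percentile, so for these the size of the difference from Ctrl is not known, and in Med and Hi 2 did, Cmpk2 and the probe-set average of Ifitm1, of which 1 probe set lay above it.

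The Ctrl column differs from the others across the array, and the split of all 2-fold calls moves with the scaling. Of all genes 2-fold apart between Med and Ctrl, 52.9% were higher as deposited, 76.5% with columns centred on all probe sets, 70.5% with loess, 47.3% with quantile normalization and 21.7% with columns centred on genes past the filter. For Hi the corresponding shares were 53.1%, 78.0%, 71.0%, 48.0% and 22.4%. The median of all genes shifted by 0.30 with centring on all probe sets and by -0.60 with centring on genes past the filter in Med, and by 0.29 and -0.54 in Hi. Members at least 2-fold above Ctrl numbered 32 to 34 in Med and 31 to 35 in Hi under these scalings. How far the difference from Ctrl reflects the cluster, the clone or the array cannot be told apart with 1 column a group.

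Interferon genes themselves were not 1.5-fold apart between Med and Hi. Of 15 ligand genes matched, 4 were lower in Hi than in Med, 6 higher and 5 identical, within -0.22 and 0.25. Of all genes, 23.6% were lower and 25.3% higher. Ifnb1, the first type I interferon made by most cells, was at 5.57, 4.81 and 4.81, and Ifng, the type II interferon, at 6.41, 6.11 and 6.11. Both lay below the receptor percentile in every column. Of the 15, 7 lay above it in Ctrl and 4 in Med and in Hi.

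Genes of the receptors and their kinases were higher or identical in Hi. Of 9 receptor and JAK kinase genes, 0 were lower in Hi than in Med, 6 were higher and 3 identical. Of all genes, 23.6% were lower, 25.3% higher and 51.1% identical. Ifnar2, the signalling chain of the type I receptor, was at 5.99, 9.10 and 10.30, 2.30-fold higher in Hi. Its 3 neighbours on the chromosome, all receptor chains, were also higher in Hi, Il10rb by 0.47 (9.17 in Med, 9.64 in Hi), Ifngr2 by 0.35 (9.80 and 10.15) and Ifnar1 by 0.13 (9.13 and 9.25). Ifngr1, which lies elsewhere, was at 8.33 in both. Jak1 was at 10.40 in both, Jak2 at 9.79 and 9.80, and Tyk2 at 8.50 and 8.74. The Ifnar2 difference stayed at 1.11 or above under the scalings tried. With columns centred on all probe sets, the identical genes of this list and Jak2 lay just below 0.

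Of 8 listed genes, 6 of them STAT or IRF genes outside the members and 2 encoding IRF2-binding proteins (Irf2bp1 and Irf2bp2), none was 1.5-fold apart between Med and Hi. Stat3 was at 10.43 in all 3 columns and Irf3, the factor that starts interferon beta transcription, at 7.87, 8.16 and 8.16. Among 17 sensing adaptors and kinases, 7 were lower, 4 higher and 6 identical, where 23.6% of all genes were lower and 25.3% higher. Sting1, the adaptor of cytosolic DNA sensing, was at 6.84, 10.46 and 9.56 (-0.89), and Zbp1, a sensor of Z-form nucleic acid that is itself interferon-induced, at 8.06, 10.38 and 9.66 (-0.72). Cgas, the DNA sensor that feeds Sting1, was at 6.28, 6.84 and 6.28 (-0.57), under 1.5-fold. It lay below the receptor percentile in Ctrl and just above it in Hi, so its difference is one near background. The RNA adaptor gene Mavs was at 9.94 in Med and 10.11 in Hi. Tlr4, a receptor for bacterial lipopolysaccharide, was at 8.82 and 9.32. Of 14 genes listed as negative regulators 2 were lower (14.3%), 4 higher and 8 identical, beside those same shares of all genes. The list includes Ube2l6 (0.04), which encodes an ISG15-conjugating enzyme and not a brake on the pathway. Among the 14, Rnf125, a ligase that degrades RIG-I, was 1.73-fold higher in Hi (7.82 and 8.60). Socs1, the inhibitor of JAK kinases, was at 8.42 in both.

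**Figure D4:**
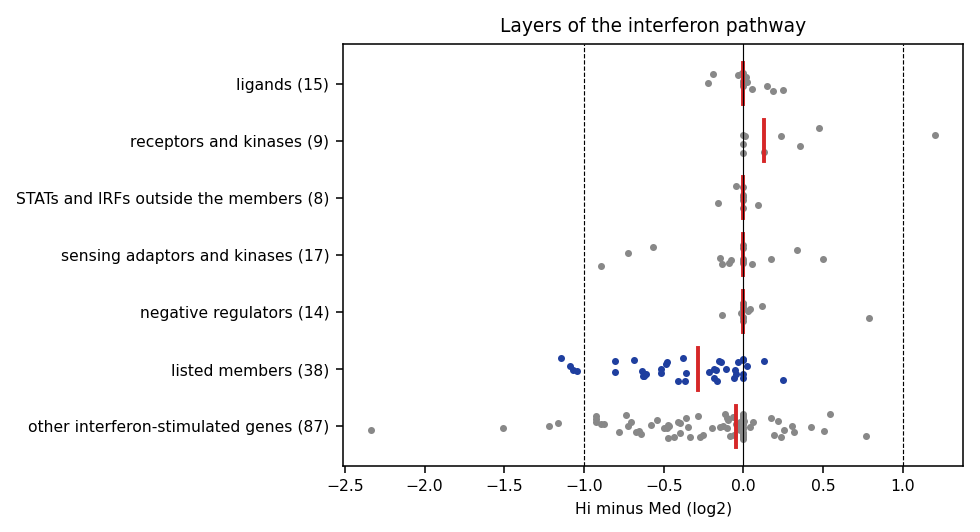
Difference between Hi and Med (log2, horizontal axis) for each gene in 7 layers of the pathway, with the number of genes matched in brackets. A red bar marks each layer's median and dashed lines mark 2-fold. The STAT and IRF layer includes Irf2bp1 and Irf2bp2, and the negative regulator layer includes Ube2l6. The listed members have a median of -0.29 and receptors and kinases 0.13; the point at 1.20 is Ifnar2 and the point at -2.34 is Ly6e.

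Interferon-stimulated genes outside the 43 included some with larger differences. Of 105 such genes listed, 87 were matched, and 48 were lower in Hi than in Med, 14 higher and 25 identical, with a median of -0.05. At 1.5-fold, 16 (18.4%) were lower and 1, Gbp9, higher, against 2.04% and 1.01% of all genes. At or above the 75th percentile of level, 13 of 50 were 1.5-fold lower, against 4.35% of all genes there. Ly6e, a surface protein that blocks coronavirus fusion, was at 8.33, 13.27 and 10.93, 5.05-fold lower in Hi. Sp100, a nuclear body protein, was at 5.66, 11.02 and 9.51 (-1.51), Tmem140 at 6.46, 9.60 and 8.38 (-1.22), and Ifi205, the p200 neighbour of Ifi203, at 5.40, 10.49 and 9.32 (-1.16). These 4 genes were the ones 2-fold lower, against 0.512% of all genes, and none was 2-fold higher. Gbp9, from another cluster of guanylate-binding genes than Gbp3 and Gbp7, was at 6.35, 8.58 and 9.35 and so 1.70-fold higher in Hi. The median of these 87 genes turned to 0.01 with columns centred on genes past the filter, where 43 were lower and 44 higher.

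**Figure D5:**
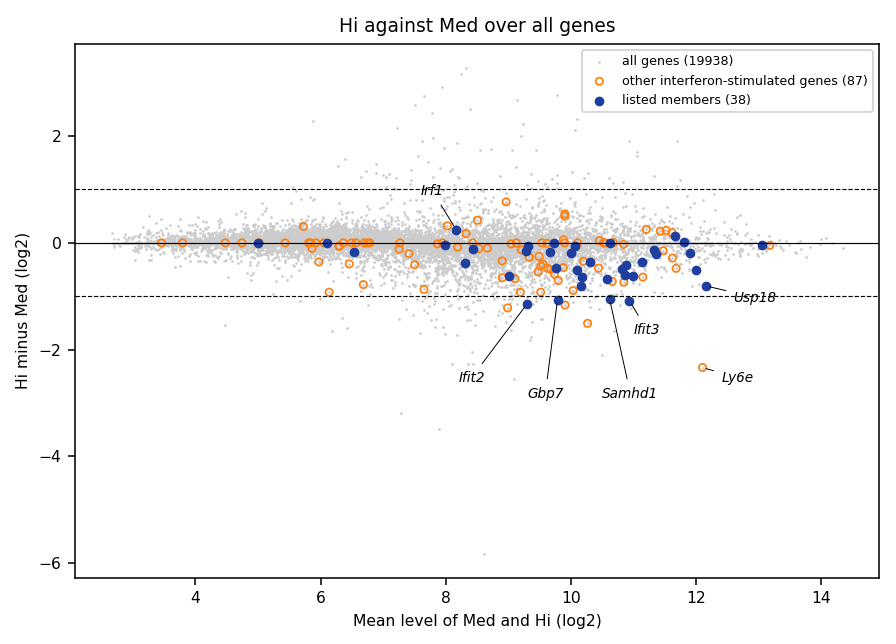
Difference between Hi and Med (log2, vertical axis) against the mean level of both columns (log2, horizontal axis) for 19938 genes (grey), the 38 members (filled) and 87 other interferon-stimulated genes (open), with dashed lines at 2-fold. Members lie mostly right of 9 and below 0, with Usp18 at -0.81 and Irf1 at 0.25.

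Leukocytes also express many of these genes, so their markers are given beside the result. Of 10 leukocyte and macrophage markers, 2 were lower in Hi than in Med, 5 higher and 3 identical. Of all genes, 23.6% were lower and 25.3% higher. The levels of the 10 ranged from 5.12 to 7.28 in Ctrl, 4.63 to 9.12 in Med and 4.70 to 7.67 in Hi. Above the receptor percentile lay 4 of the 10 in Ctrl, 3 in Med and 4 in Hi. Ptprc (CD45), which marks all leukocytes, was at 6.23, 5.63 and 5.63, below the receptor percentile in each. Csf1r and Itgam were also below it in each column and identical in Med and Hi. Cd68, a lysosomal protein of macrophages that other cells can express, was at 7.18, 9.12 and 7.67, 2.73-fold lower in Hi. The 3 dendritic cell markers were identical in Med and Hi, and of 5 lymphocyte markers 3 were higher in Hi and none lower. The part of other cells in the lower values of Hi was not tested.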

How the data were processed

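Total RNA (100 ng) was copied with random primers, labelled with biotin and read on an Affymetrix array, per the labels' protocols. The authors deposited 35556 probe-set values in 3 columns, 1 a group, here taken as log2 from their range, since no source used here gives the log base. Affymetrix Expression Console and GCRMA are named in the submitters' processing notes, with no role or version. The number of arrays, 1 column a group, limits the precision.

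Symbols came from GEO's platform annotation (21789 probe sets of 1 gene). Probe sets of a gene were averaged with pandas 2.3.3, and differences of log2 values were counted at 2-fold and 1.5-fold beside all genes. The steps were tested on simulated data. The members, gene lists, motifs and comparisons were chosen with earlier results of these data known. All members are named. From other lists, genes 2-fold apart between Hi and Med, up to 4 with the largest differences, and genes a result turns on are named, the last chosen after their values were seen. Alternatives were centring, quantile and loess scaling (statsmodels 0.14.6, span 0.3), filters on level, the highest probe set, symbols updated through gene numbers, and the fold threshold. Centring on genes past the filter was added after seeing the data. RefSeq sequences and gene order are of GRCm38.p6.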

Additional observations from a re-analysis of the deposited data

How the results depend on the processing

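No paired analysis was possible because each group has 1 column, and no column could be left out. Over 3 comparisons and 5 measures (members 2-fold lower, 2-fold higher, lower, higher, and their median), no median changed sign and 122 of 141 alternative values stayed within 1.5 times the deposited one. Between Hi and Med, members 2-fold lower numbered 4 as deposited, 0 with quantile normalization and 11 at 1.5-fold. Members higher by any amount numbered 3 as deposited, 6 with quantile normalization, 5 with loess and 10 with columns centred on genes past the filter, an alternative chosen after seeing the data. In each of Med and Hi against Ctrl, members 2-fold lower numbered 0 as deposited, and 1 with that centring or at 1.5-fold. Members lower by any amount against Ctrl numbered 3 as deposited, 1 with loess and 0 with each of the 3 filters on level. The filters leave fewer genes and take out Ifitm1, Mx1 and Cmpk2, the 3 members below Ctrl, so the 0 is fixed by them. Of all genes past the filter on the 2 columns compared, 27.8% were lower in Med than in Ctrl. The strictest filter, on the mean of Hi and Ctrl, left 21 members in Hi against Ctrl, all 21 of them 2-fold higher. Genes low in Ctrl pass this filter only through Hi, so a higher level in Hi is partly built into that count. Of all genes past it, 2071 were 2-fold higher and 225 lower. The cause was not tested for scaling. Genes 2-fold apart between Hi and Med over the whole array numbered 102 lower and 81 higher as deposited, and 61 and 68 with quantile normalization. With 1 column a group, a spread between subclones could be of any size relative to the differences between Med and Hi.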
